A study of Drosophila melanogaster with 6 samples.

Results

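The genes kn (knot), bs (blistered, which encodes dSRF) and px (plexus) were examined for CAP-D3 and IgG ChIP-seq peaks in a Drosophila cell line. A peak was counted when it overlapped the Release 6 span of a gene plus 1000 bp on both sides, and 41 of the 22108 deposited CAP-D3 peaks and 5 of the 3915 deposited IgG peaks met this rule. ChIP-seq uses an antibody to pull down a protein together with its DNA, and stretches that yield more sequenced fragments than unprecipitated chromatin are called as peaks. The 6 samples were 2 CAP-D3 ChIP samples (antibody YZ384), 2 IgG ChIP samples (normal rabbit IgG, the control for unspecific recovery) and 2 samples of input chromatin. The labels name no treatment and no genetic change. The labels name the cells as S2R+, of embryonic type and strain Oregon R, whereas the paper's methods name S2-DRSC cells, and no wing cells were assayed. The deposited data are 1 peak list per antibody, called by MACS against input, so that no value has an error between experiments. Each peak has a score, which was read here as −log10 of the MACS probability, so that a higher score means a smaller probability. The read depth behind the scores is unknown, and CAP-D3 and IgG scores are therefore given side by side without a test.

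All 3 genes act on the choice between vein and intervein fate in the wing. Veins are cuticular tubes that form where EGFR signaling stays active, and intervein cells form the blade between them. KNOT is a transcription factor of the COE family that is made in the region between longitudinal veins L3 and L4 and holds back vein fate there. dSRF is a MADS-box transcription factor that promotes intervein fate, and Plexus is a nuclear protein whose loss gives extra veins. CAP-D3 is a subunit of Condensin II, a complex that compacts and organizes chromosomes. The 3 genes lie on chromosome arm 2R. The gene table used here holds no strand and no exons, so places are given as distances from the gene end with the lower coordinate, and whether a peak was exonic or intronic was not analysed here.

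CAP-D3 peaks were found at all 3 genes, and px and bs held more of them than kn. The count was 5 at kn, 13 at bs and 23 at px. Their spans are 34412, 33613 and 67769 bp, so that the density was 1.37 peaks per 10 kb at kn, 3.65 at bs and 3.3 at px. Presence alone does not set the genes apart, since 55.7% of the 17673 annotated genes on 2L, 2R, 3L, 3R, 4 and X had at least 1 CAP-D3 peak in a window drawn the same way. The IgG list had 1 peak at kn, none at bs and 4 at px, and 14.2% of all genes had at least 1 IgG peak. CAP-D3 peaks covered 4.32% of the window at kn, 12.8% at bs and 13.7% at px. The map of peaks along the genes shows that kn, although as long as bs, has few and widely set peaks.

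**Figure D1:**
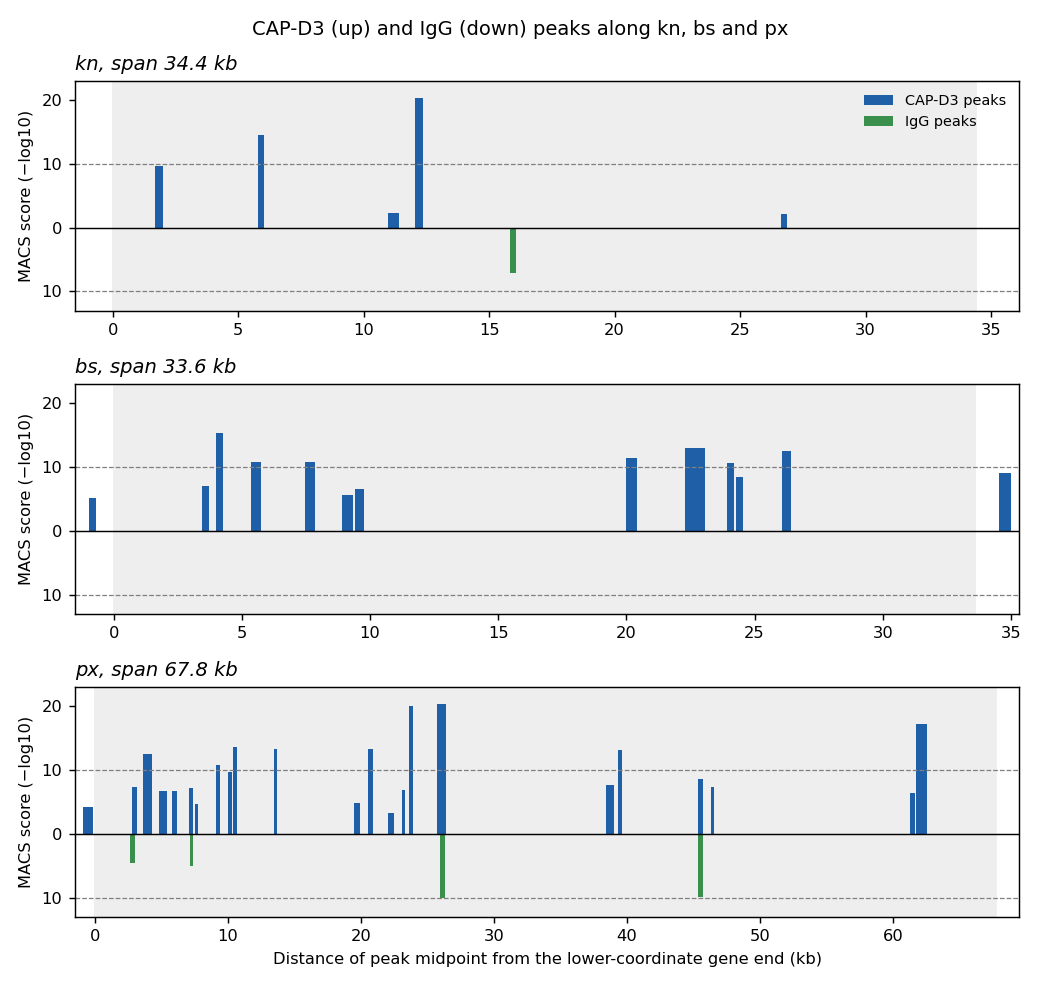
CAP-D3 peaks (bars pointing up) and IgG peaks (bars pointing down) along kn, bs and px, by the distance of the peak midpoint from the lower-coordinate gene end in kb (x axis) and the MACS score on a −log10 scale (y axis); bar width is peak length, grey marks the gene span and dashed lines mark a score of 10. The 13 CAP-D3 peaks of bs have no IgG peak below them and 4 of the 23 at px do, beside 13.9% of the whole CAP-D3 list. Whether the genes differ in this was not tested.

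The scores of the 3 genes spread around those of the whole list. Of the 41 CAP-D3 peaks, 18 (43.9%, 95% Wilson interval 29.9 to 59.0%, counting error only) had a score of at least 10, the threshold used here for stronger peaks, and in the whole CAP-D3 list 41.9% did. The paper counts its binding sites at a probability that equals a score of 10, if the score comes from a p-value. The remaining peaks counted here would then fall short of that level. However, 9254 deposited CAP-D3 peaks reached a score of 10, more than the binding sites the paper counts, so the levels may differ. The median score was 9.66 at kn, 10.69 at bs and 7.61 at px, and 9.16 over all CAP-D3 peaks. A score of at least 10 was reached by 2 of 5 peaks at kn, 7 of 13 at bs and 9 of 23 at px. At that threshold, 33.1% of all annotated genes had at least 1 CAP-D3 peak. A score of at least 20 was reached by 1 peak at kn and 1 at px, and by none at bs, where the scores kept within the narrowest range, from 5.17 to 15.27.

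**Figure D2:**
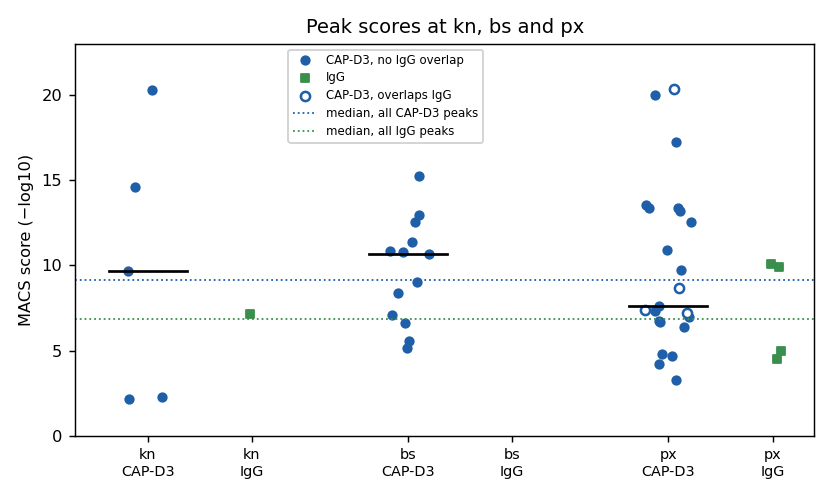
MACS scores on a −log10 scale (y axis) of CAP-D3 peaks (circles, open where the peak overlaps an IgG peak) and IgG peaks (squares) at kn, bs and px; black bars are medians of the CAP-D3 peaks and dotted lines are medians of the whole lists. The scores of kn spread from 2.17 to 20.28, whereas those of bs lie between 5.17 and 15.27.

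At kn, all 5 CAP-D3 peaks lay inside the gene span, and the midpoints of 4 of them within 12.2 kb of the lower-coordinate end. MACS peak 6827 (2R from 14774347 to 14774657, score 9.66) lay 1.9 kb from the lower-coordinate end. MACS peak 6828 (14778436 to 14778685, score 14.58) followed after a gap of 3778 bp, at 17.2% of the span. These are a peak just below the threshold and one above it, and 12.3% of the CAP-D3 list scored higher than peak 6828. MACS peak 6829 (14783604 to 14784046, score 2.27) lay 4918 bp further. MACS peak 6830 (14784701 to 14785009, score 20.28) followed it after 654 bp, at 35.5% of the span, and only 2.11% of the list scored higher. MACS peak 6831 (14799264 to 14799524, score 2.17) lay 14254 bp beyond peak 6830 and 7.7 kb from the higher-coordinate end. The kn peaks therefore include 1 peak near the top of the CAP-D3 list and 2 near its bottom, as 99.8% and 99.9% of the list scored higher than peaks 6829 and 6831. The widest kn gap was exceeded by 5.39% of the gaps between CAP-D3 peaks on 2R, and it held the only IgG peak of the gene.

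That IgG peak (2R from 14788478 to 14788727, score 7.14) lay 3468 bp from MACS peak 6830 and overlapped no CAP-D3 peak. In the whole IgG list, 79.2% of peaks overlapped a CAP-D3 peak. None of the 5 CAP-D3 peaks at kn overlapped an IgG peak, a count of 0 with a 95% Wilson upper limit of 43.4%, and the distances to the IgG peak were 3468 to 13820 bp. BEAF-32, the gene of a chromatin boundary protein, begins or ends 19 bp from the lower-coordinate end of kn and had no peak of either antibody in the part within 1000 bp. Just outside the window, CAP-D3 peaks lay 2341 bp beyond the higher-coordinate end (score 8.66) and 10263 bp beyond the lower-coordinate end (score 9.47).

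At bs, the 13 CAP-D3 peaks formed a lower and an upper group with a gap of 10244 bp between them. The lower group inside the gene had 6 peaks, from 3.6 to 9.6 kb from the lower-coordinate end. Its scores, in order of position, were 7.08, 15.27, 10.83, 10.79, 5.55 and 6.63. MACS peak 8940 (2R from 24346856 to 24347112), with the score of 15.27, was the highest-scoring peak of the gene, and 10.1% of the CAP-D3 list scored higher. The upper group had 5 peaks, from 20.2 to 26.2 kb, with scores of 11.35, 12.94, 10.69, 8.39 and 12.55. MACS peak 8946 (24365155 to 24365947) in this group was the longest CAP-D3 peak at the 3 genes, with 793 bp, against a median of 347 bp for the 41 peaks and 324 bp for the whole list. Within both groups successive peaks were 59 to 1888 bp apart. The gap between the groups was exceeded by 9.32% of CAP-D3 gaps on 2R.

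The other 2 CAP-D3 peaks of bs lay outside its ends. MACS peak 8938 (24341899 to 24342165, score 5.17) lay 0.8 kb below the lower-coordinate end. MACS peak 8950 (24377403 to 24377862, score 9.01) had its midpoint 1.2 kb beyond the higher-coordinate end, was counted because it reached into the flank, and overlapped the neighboring gene CG13578. Just outside the window, further CAP-D3 peaks lay 1399 bp below (score 6.72) and 4790 bp above (score 9.25). Inside bs, the annotation holds an antisense RNA gene, asRNA:bsAS, which takes up 54.2% of the bs span and contained 7 of the 11 CAP-D3 peaks inside the span, 4 of them with a score of at least 10. ChIP peaks have no strand, so peaks in this stretch belong to both genes. The small gene CG44812 and the tRNA gene tRNA:Asn-GTT-1-9, also inside bs, overlapped no peak.

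No IgG peak lay in the window of bs. That 0 of the 13 CAP-D3 peaks overlapped an IgG peak follows from the lack of IgG peaks in and near the window, and is no separate result. In the whole CAP-D3 list, 13.9% overlapped an IgG peak by at least 1 bp. The nearest IgG peaks lay 17387 bp below the gene (score 3.55) and 12199 bp above it (score 3.83). In the 100 kb on both sides of the window there were 14 IgG peaks, or 0.7 per 10 kb, and 90 CAP-D3 peaks, or 4.5 per 10 kb. The density of CAP-D3 peaks in bs, 3.65 per 10 kb, was thus below that of its surroundings. At px it was 3.3 per 10 kb against 2.35 in the same distance around the gene, and at kn it was 1.37 against 2.4. For IgG the values were 0.573 at px against 0.5 around it, and 0.275 at kn against 0.3.

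At px, most CAP-D3 peaks lay in the part of the gene near the lower coordinate. When the span was cut into 3 parts of equal length, the lower part held 13 peaks, the middle part 5 and the upper part 4, and 1 more lay in the lower flank. The peaks with a score of at least 10 were divided as 5, 3 and 1. From 3.0 to 13.6 kb of the lower-coordinate end there were 10 CAP-D3 peaks, with scores of 7.38, 12.55, 6.76, 6.66, 7.23, 4.66, 10.88, 9.72, 13.57 and 13.38. A second run of 6 peaks lay from 19674 to 26031 bp, with scores of 4.79, 13.35, 3.29, 6.96, 19.98 and 20.38. It ended with the highest-scoring peaks of the gene, MACS peak 8407 (2R from 22517868 to 22518179) and MACS peak 8408 (22519996 to 22520660), and 2.34% and 2.02% of the CAP-D3 list scored higher than these.

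The rest of px held 6 CAP-D3 peaks in 3 close pairs separated by long empty stretches. The pair at 38.7 and 39.5 kb had scores of 7.61 and 13.19. The pair at 45.5 and 46.4 kb had scores of 8.65 and 7.32. The pair at 61.5 and 62.1 kb had scores of 6.41 and 17.26, and its second peak, MACS peak 8414 (22556048 to 22556827), was 780 bp long. The stretches before the first and the last pair had 12074 and 14700 bp without a CAP-D3 peak, which 7.34% and 5.12% of CAP-D3 gaps on 2R exceeded. The longer of these contains the gene gas, which lies inside px and overlapped no peak. The peak in the lower flank, MACS peak 8392 (22493399 to 22494151, score 4.2), overlapped the neighboring gene CG4610. Just outside the window, CAP-D3 peaks lay 3638 bp below (score 16.04) and 2440 bp above (score 8.34).

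Among the 3 genes, px alone was a place where CAP-D3 and IgG peaks coincided. Of its 23 CAP-D3 peaks, 4 (17.4%, 95% Wilson interval 6.98 to 37.1%) overlapped an IgG peak, beside 13.9% of the whole list. Of the 41 peaks at the 3 genes together, 9.76% (3.86 to 22.5%) overlapped an IgG peak. These intervals treat neighboring peaks as independent, and whether px differs from the whole list in this was not tested. At 3.0 kb, MACS peak 8393 (score 7.38) shared 222 bp with an IgG peak of score 4.51. At 7.2 kb, MACS peak 8397 (score 7.23) shared 257 bp with an IgG peak of score 4.98. In these 2 cases neither list reached a score of 10. At 26031 bp, MACS peak 8408 (score 20.38), the highest-scoring CAP-D3 peak of the 3 genes, shared 416 bp with an IgG peak of score 10.06, the only IgG peak at these genes above 10. At 45.5 kb, MACS peak 8411 (score 8.65) shared 331 bp with an IgG peak of score 9.92. Here the IgG score was the higher of the pair, which was so for 21.6% of the 3084 CAP-D3 peaks in the whole list with such an overlap. The 4 IgG peaks at px thus all lay on CAP-D3 peaks, as did 79.2% of the whole IgG list. MACS peak 8407, with nearly the same score as 8408, lay 2027 bp from the nearest IgG peak. The other 19 CAP-D3 peaks of px lay 112 to 16071 bp from an IgG peak.

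Successive peaks were closest at px and farthest apart at kn, although the density was highest at bs. The median gap between successive CAP-D3 peaks was 4348 bp at kn (4 gaps), 1297 bp at bs (12 gaps) and 634.5 bp at px (22 gaps), beside 1837.5 bp over 2R. Gaps under 1000 bp made up 1 of 4 at kn, 4 of 12 at bs and 13 of 22 at px, and 33.6% of those on 2R. Peaks at px were thus set closer together, within runs, than those at the other 2 genes. Inside the spans, no CAP-D3 peak midpoint came nearer to a gene end than 1.9 kb, at kn, where the nearest to the other end lay 7.7 kb away. The nearest were 3.6 and 7.4 kb from the ends at bs, and 3.0 and 5.6 kb at px.

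**Figure D3:**
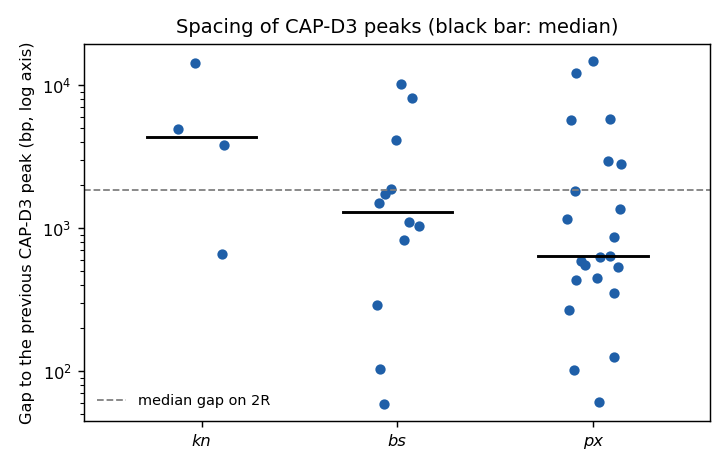
Gap in bp from each CAP-D3 peak to the peak before it (y axis, log scale) at kn, bs and px; black bars are medians and the dashed line is the median over 2R. Most gaps at px lie below the dashed line, and 3 of the 4 at kn lie above it.

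To take gene length into account, each gene was set against all annotated genes with a span within 25% of its own. The count of kn was close to the middle of its group, as 226 of 386 genes (58.5%) had at least as many CAP-D3 peaks, and the median was 6. For bs, 44 of 385 genes (11.4%, 95% Wilson interval 8.62 to 15.0%) had 13 CAP-D3 peaks or more, and the median was 6. For px, 17 of 186 genes (9.14%, 5.78 to 14.1%) had 23 or more, and the median was 9. With peaks of a score of at least 10, the shares were 57.5% for kn, 9.35% for bs and 12.4% for px. Chromosomes X and 4 held few peaks of either list, with 1021 and 25 CAP-D3 peaks and 75 and 4 IgG peaks, and these chromosomes supplied 68, 71 and 43 of the genes in the 3 groups. Against genes of 2R alone, the shares were 67.6% for kn, 20.3% for bs and 16.3% for px, so that bs and px stood less high on their own arm. The shares also moved with other settings. For bs the share was 16.9% without a flank and 7.53% with flanks of 5000 bp, and for px it was 4.19% with spans within 50%. With spans within 10% the share of px was 11.8%, which stayed inside its interval above. With scores of at least 20 the shares were 9.07% for kn (1 peak), 100% for bs (0 peaks) and 15.1% for px (1 peak). The 100% is fixed by the count of 0. The shares of kn and px each rest on 1 peak just above the threshold, with scores of 20.28 and 20.38. The gene with the most peaks was htt, the fly huntingtin gene, with 26 in the groups of kn and bs, and prickle (pk), a planar cell polarity gene of 2R, with 35 in that of px.

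**Figure D4:**
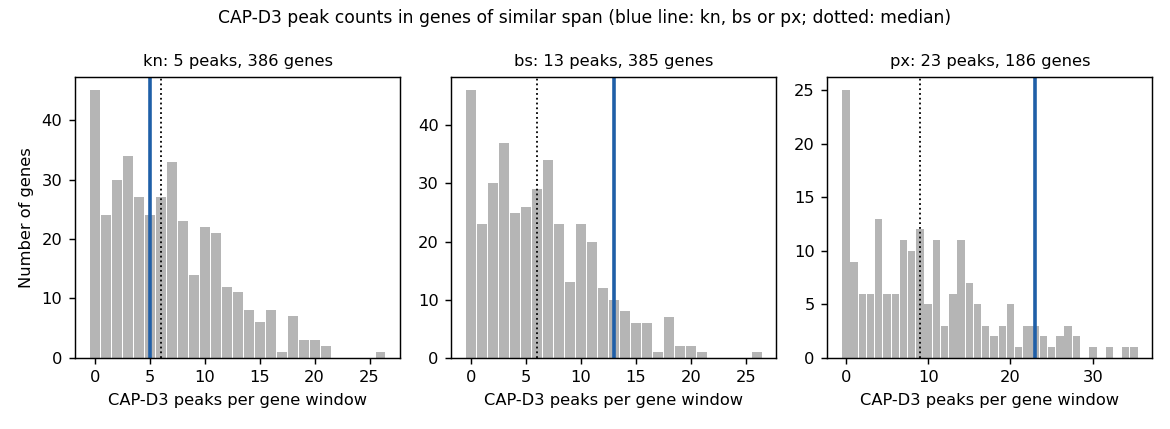
Number of genes (y axis) by CAP-D3 peaks per gene window (x axis) among genes with a span within 25% of that of kn, bs or px; the blue line is the gene itself and the dotted line the median. The line of kn (5) lies beside the median of 6, whereas those of bs (13) and px (23) lie in the upper part of the range.

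The IgG list was read against the same genes. No IgG peak was found in 177 of the 385 genes with a span like that of bs, so the absence of IgG peaks alone is common. Among the 44 of these genes with 13 CAP-D3 peaks or more, however, every one had at least 1 deposited IgG peak, with a median of 3. This comparison was not planned, and it depends on where the length group ends. CG30377 on 2R, with 13 CAP-D3 peaks and no IgG peak, has a span of 25008 bp. The shortest gene of the group has 25223 bp. Within the group, the genes that came nearest were Eip78C, an ecdysone-induced nuclear receptor gene, and beat-VII, each with 12 CAP-D3 peaks and no IgG peak. When only peaks with a score of at least 10 were counted in both lists, 18 of 36 genes with 7 CAP-D3 peaks or more had no IgG peak, so that bs shared its lack of IgG peaks with many others at this threshold. For px, 19.4% of the 186 genes had at least 4 IgG peaks, and for kn 54.9% of 386 genes had at least 1.

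Other genes of wing vein patterning were counted in the same way. Of a list of 25 genes, 24 were matched, and 22 of these had at least 1 CAP-D3 peak, with 110 peaks in all and a median of 3.5 per gene, beside 55.7% of all annotated genes with a CAP-D3 peak. With a score of at least 10 there were 49 peaks in 17 genes, beside 33.1% of all genes with such a peak. IgG had 21 peaks in 13 genes, beside 14.2% of all genes with an IgG peak. These shares over all genes are not matched for length. More CAP-D3 peaks than the median of genes of similar length were found in 15 of the 24. The same share over all annotated genes was not computed, so whether the listed genes stand out was not tested. The largest counts were 14 at Egfr, which encodes the receptor itself, and 11 each at vn (the EGFR ligand Vein), ab (abrupt, a zinc-finger protein needed for vein L5) and tkv (a Dpp receptor). All 4 genes of the EGFR branch had CAP-D3 peaks, 29 in all, against 3 IgG peaks. The 9 vein and intervein transcription factor genes had 37 against 7, and 6 of 7 genes of the Hedgehog and Dpp branch had 39 against 11. Of the 2 crossvein BMP modulator genes, 1 had CAP-D3 peaks, 2 against 0 IgG peaks. The 2 Notch branch genes had 3 against 0. In these 2 branches no CAP-D3 peak reached a score of 10. The whole lists hold 22108 CAP-D3 and 3915 IgG peaks, and whether the branches differ from them was not tested. No CAP-D3 or IgG peak was found at ci, the Hedgehog effector on chromosome 4, or at sog, a BMP inhibitor gene on X.

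The count of px exceeded that of every matched gene on the list. Only bi (optomotor-blind, on X) has a longer span, of 72792 bp, and it had 5 CAP-D3 peaks. The next longest, tkv, spans 52385 bp. X held 1021 peaks of the CAP-D3 list and 2R held 5121, and these counts were not adjusted for span or chromosome. The count of bs was 1 below that of Egfr and 2 above that of vn, genes of similar span, and vn like bs had no IgG peak while Egfr had 2. The 5 peaks of kn were fewer than in these genes of like span and than the 10 at dpp. They were more than the 2 at N, the Notch receptor gene on X, and the 0 at sog. Among all genes of similar span, 58.5% had at least as many as kn. These counts come from 1 list per antibody, and their variation between experiments could not be estimated.

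**Figure D5:**
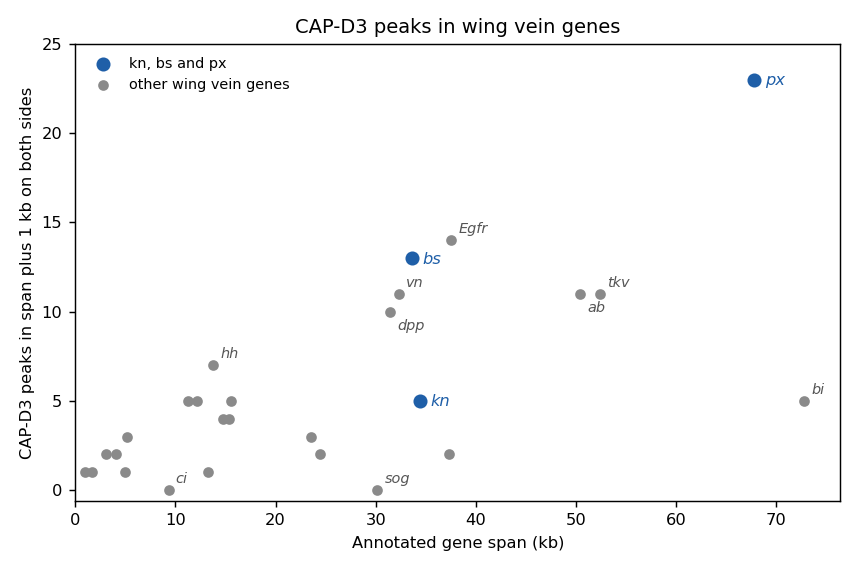
CAP-D3 peaks in the span plus 1 kb on both sides (y axis) against the annotated span in kb (x axis) for kn, bs and px (blue) and 24 other wing vein genes (grey). Egfr, bs, vn and dpp have 14, 13, 11 and 10 peaks at similar spans, where kn has 5, N has 2 and sog has 0. The most are at px, with 23.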

How the data were processed

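CAP-D3, IgG and input libraries were made from the cells, and the authors called peaks with MACS against input. The submitters' processing notes name CASAVA 1.4, Trim Galore 0.3.7, cutadapt 1.8, FastQC 0.11.3, Bowtie 1.0.0 and MACS2 2.0.9. The genome build is not given in the sources used here, nor is the way separate experiments were joined into 1 list. The score deposited by the authors was read as −log10 of a p-value or q-value (which of these is not stated), since its lowest value in both lists is 2, or 0.01 as a probability. It depends on read depth, which is unknown. The labels give 10 units of micrococcal nuclease and 2 samples per group, and the methods differ in both.

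Starts were converted to count from 1. Gene spans came from the RefSeq table of Release 6 plus ISO1 MT, matched by current symbol, and gene coordinates are not printed. Overlap meant at least 1 bp. Genes named were kn, bs and px, genes near their peaks, the listed wing vein genes by counts, and the gene with the most peaks in each length group. N, bi, the genes without an IgG peak and those of like span in the comparison with the list were named after their values were seen. Members, lists and thresholds were chosen with earlier results of these data known, so no test was made. Intervals treat peaks as independent. Those on shares of genes treat genes the same way, although overlapping genes share peaks. The length groups hold every annotated gene of such a span and are no sample. Counting was tested on simulated data. Sequence was not analysed here. Python 3.11.15, pandas 2.3.3, numpy 2.4.6, scipy 1.17.1 and matplotlib 3.10.9 were used. Alternatives in the threshold, flank, overlap and length group were tried.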

Additional observations from a re-analysis of the deposited data

How the results depend on the processing

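Of 75 values recomputed under another setting, 52 stayed close to those reported and 23 moved. The threshold moved the counts by construction. With scores of 10 or more, CAP-D3 peaks numbered 2 at kn, 7 at bs and 9 at px, IgG peaks 0 at kn and 1 at px, and 1 CAP-D3 peak at px overlapped an IgG peak. With scores of 20 or more, CAP-D3 peaks numbered 1 at kn, 0 at bs and 1 at px, IgG peaks 0 at kn and px, and 0 overlapped at px. The share of genes of similar length with at least as many CAP-D3 peaks was then 9.07% for kn, 100% for bs and 15.1% for px. The 100% is fixed by the count of 0 at bs. For bs this share was 16.9% without a flank and 7.53% with a flank of 5000 bp. With spans within 50% it was 51.7% for kn, 7.73% for bs and 4.19% for px, and with genes on 2R only it was 67.6%, 20.3% and 16.3% for kn, bs and px. Midpoints in place of any overlap, stricter or wider definitions of IgG overlap, spans within 10% and protein-coding genes only left every value close to that reported. The number of similar-length genes with at least as many CAP-D3 peaks as bs and no IgG peak was 0, and under alternatives added after seeing the data it was 0 with spans within 10%, 2 with spans within 50%, 18 at a score of at least 10 and 6 among genes of every length. No paired analysis was possible because the lists hold no column per experiment, only 1 list for CAP-D3 and 1 for IgG, and leaving out a replicate could not be run for the same reason. Unknown depth limits any comparison of scores between the lists.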

Other observations

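Among all 17672 other annotated genes, 199 had 13 CAP-D3 peaks or more, the count of bs, and 6 of these had no deposited IgG peak. They are klar with 21 CAP-D3 peaks, CG32373 with 17, lncRNA:CR45962 with 16, mask with 15, and CG30377 and mtgo with 13 each. CG30377 is the only one on 2R, where bs lies, and 8 of its 13 peaks had a score of at least 10, against 7 of 13 for bs. This comparison was chosen after the values had been seen.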
